A study of Mus musculus with 9 samples.

Results

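Lhx1, Onecut1, Onecut2, Calb1 and Prox1, marker genes of retinal horizontal cells, were followed in the retinas of WT mice and rd10 mice at P28. They were taken by gene symbol from a table of 22337 genes. Each of the 5 symbols was found and all 5 passed the filter on low counts in every comparison. The data were bulk mRNA sequencing of whole retina, with 3 groups of 3 libraries. WT mice were C57 BL/6J and received no treatment. The other groups were rd10 mice, which carry a missense mutation in Pde6b, the beta subunit of the rod phosphodiesterase, and lose their rods. NS-treated rd10 mice were given normal saline, and MSC-EVs-treated rd10 mice were given extracellular vesicles from mesenchymal stem cells of human umbilical cord, in each case 1 µl per eye at P14 and again at P21. The injection is described both as intravitreal and as intravenous into the eyes. The NS- and MSC-EVs-treated mice were rd10 littermates, the WT mice came from another supplier and had no injection, and strain, supplier and injection therefore cannot be told apart from the rd10 genotype in any comparison with WT. Nothing states whether the libraries of a group came from separate animals, so the p-values measure only the spread between these libraries.

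Horizontal cells are inhibitory interneurons of the outer retina. Their dendrites and axon terminals contact the synaptic endings of cones and rods, and they feed back onto photoreceptors and forward onto bipolar cells. Lhx1 is a LIM homeodomain factor that places horizontal cells in their layer. Onecut1 and Onecut2 are related CUT homeodomain factors, and Onecut1 is required for horizontal cells to form. Prox1 is a homeodomain factor that directs progenitors to the horizontal cell fate, and Calb1 encodes the calcium-buffering protein calbindin, the usual stain for mature horizontal cells. Apart from Lhx1, these genes are not confined to this cell type in the mouse retina. Onecut1 and Onecut2 are also made by ganglion cells, Calb1 by amacrine and ganglion cells, and Prox1 by AII amacrine cells, bipolar cells, Müller glia and the lens.

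Lhx1 (ENSMUSG00000018698) lies on chromosome 11 at 84518284 to 84525535, minus strand, of GRCm38, with 4 annotated transcripts. Onecut1 (ENSMUSG00000043013) lies on chromosome 9 at 74861921 to 74891781, plus strand, and Prox1 (ENSMUSG00000010175) on chromosome 1 at 190118035 to 190170714, minus strand. The RefSeq promoter table of GRCm38.p6 held 3 of the 5 genes, and their upstream sequences are shown to set Lhx1 and Prox1, both called between NS-treated rd10 and WT, beside Onecut1, which did not pass that test. Each run holds 150 bases, 5′ to 3′ on the gene's strand, from 160 to 11 bases before the RefSeq start. The windows are chr11:84525545-84525694 for Lhx1, chr9:74861761-74861910 for Onecut1 and chr1:190170838-190170987 for Prox1. Capitals mark matches, on either strand, to CCAAT (the CCAAT box), TGACGT (a cAMP response element core) or GGGCGG (the GC box), which do not overlap each other here.
Lhx1: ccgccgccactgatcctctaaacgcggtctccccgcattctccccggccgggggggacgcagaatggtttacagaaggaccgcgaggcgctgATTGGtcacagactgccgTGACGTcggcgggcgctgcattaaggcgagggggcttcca
Onecut1: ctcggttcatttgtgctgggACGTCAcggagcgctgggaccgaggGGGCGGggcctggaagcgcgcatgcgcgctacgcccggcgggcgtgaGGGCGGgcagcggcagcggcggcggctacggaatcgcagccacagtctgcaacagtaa
Prox1: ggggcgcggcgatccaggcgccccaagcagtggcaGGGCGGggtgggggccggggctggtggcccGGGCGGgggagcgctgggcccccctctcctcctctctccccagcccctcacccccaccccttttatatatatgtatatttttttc

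The 3 windows were GC-rich, at 66.0% for Lhx1, 71.3% for Onecut1 and 69.3% for Prox1, against a median of 53.3% over the same 150 bases of 32851 promoters. Lhx1 held a CCAAT box 68 bases and a TGACGT core 50 bases before the start. Onecut1 held TGACGT 140 bases before the start and GC boxes at 115 and 68 bases, and Prox1 held GC boxes at 125 and 95 bases. None of the 3 held ATTGAT, a core that ONECUT factors bind, or TAATTA, a core of LIM homeodomain factors. The background was the 250 bases before each of 32851 starts, which belong to 27025 gene symbols. CCAAT was found in 33.8% of these windows, GGGCGG in 32.7%, ATTGAT in 6.72%, TGACGT in 6.47% and TAATTA in 4.84%. These matches describe letters, not sites in use, and the motifs were chosen after the sequences were seen.

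Counts per library summed to between 19491717 and 62532343, with MSC-EVs replicate 3 the deepest. Pde6b transcripts, which the rd10 missense mutation does not remove, lay at 2410 to 2600 CPM (counts scaled to the size of the library) in WT, 450 to 616 CPM in NS-treated rd10 and 473 to 711 CPM in MSC-EVs-treated rd10. Rod genes took 8.05% to 8.50% of all counts in WT, 1.88% to 2.65% with NS and 1.93% to 2.64% with MSC-EVs. MSC-EVs replicates 1 and 2 held Y-linked transcripts at a summed 183 and 189 CPM, whereas the other 7 libraries had at most 0.5 CPM. The labels give no sex.

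Per unit of transcript length, Calb1 and Prox1 were the abundant members. In WT retinas the deposited FPKM averaged 31.3 ± 0.627 for Calb1 (SD, n = 3), 27.5 ± 0.488 for Prox1, 2.44 ± 0.562 for Lhx1, 1.24 ± 0.202 for Onecut1 and 0.697 ± 0.0929 for Onecut2, and no neighbours in this order overlapped. With NS, the order by mean FPKM was the same, from 41.1 ± 2.59 for Calb1 and 40.5 ± 3.15 for Prox1 through 3.69 ± 0.542 for Lhx1 to 1.60 ± 0.348 for Onecut1 and 1.33 ± 0.108 for Onecut2. Calb1 overlapped Prox1 there, and Onecut1 overlapped Onecut2. With MSC-EVs, Prox1 (43.7 ± 4.84 FPKM) stood before Calb1 (37.9 ± 0.525), Lhx1 (3.07 ± 0.142), Onecut1 (1.90 ± 0.180) and Onecut2 (1.76 ± 0.226), with the same 2 pairs overlapping. The 3 transcription factors Lhx1, Onecut1 and Onecut2 were therefore low-abundance transcripts, and their counts per library ran from 91 to 1572, against 2922 to 21873 for Calb1 and Prox1.

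**Figure D1:**
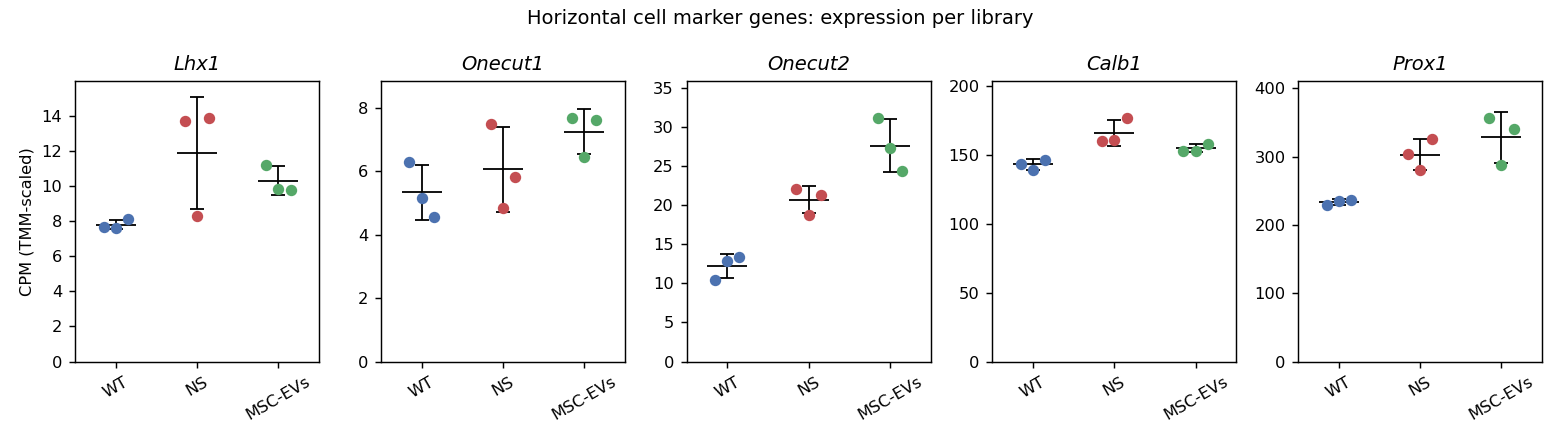
Expression of the 5 genes in each library, as TMM-scaled CPM on axes that start at 0, by group (dots, libraries; line and bars, mean ± SD, n = 3). Every NS and MSC-EVs library lay above every WT library for Lhx1, Onecut2, Calb1 and Prox1, while for Onecut1 the NS libraries overlapped WT and the MSC-EVs libraries lay above WT.

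NS-treated rd10 retinas were compared with WT to ask how these genes stood in the degenerating retina. Onecut2, Lhx1, Prox1 and Calb1 were higher in NS-treated rd10, by 1.70-, 1.54-, 1.3- and 1.16-fold, and Onecut1 did not pass the test. A gene was called at a Benjamini-Hochberg adjusted p under 0.05 from the quasi-likelihood test of edgeR fitted on the whole table, with no limit on the fold change. By that rule 4 of 5 members were called higher and none lower. Of the 14644 genes tested, 61.3% were called, 31.2% higher and 30.1% lower. The members' median log2 fold change was 0.375, against 0.005 over all genes tested. The NS and WT libraries did not overlap for the same 4 genes, as for 66.9% of all genes tested (33.7% higher and 33.2% lower). None of the 5 reached a log2 fold change of 1, which 12.7% of genes did with an adjusted p under 0.05.

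Among the members, Onecut2 had the largest fold change. Its WT libraries had 10.4, 12.8 and 13.4 CPM, and its NS libraries had 22.1, 18.8 and 21.3 CPM. The groups were well apart, and the log2 fold change was 0.77 ± 0.11 (SE; adjusted p = 8.09e-05 by edgeR). In whole retina, more cells of a type cannot be told apart from more RNA per cell.

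For Lhx1, WT libraries lay close together at 7.67, 7.61 and 8.11 CPM, whereas NS libraries had 13.7, 8.28 and 13.9 CPM. NS replicate 2 was just above the highest WT library, and the other two NS libraries were well above it. The log2 fold change was 0.62 ± 0.18 (95% interval 0.23 to 1.01, adjusted p = 0.0105 by edgeR). Without NS replicate 2 it was 0.82 ± 0.11, and without NS replicate 1 or 3 it was 0.50 or 0.51, still past the threshold.

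Onecut1 had 6.28, 5.15 and 4.55 CPM in WT and 7.50, 4.85 and 5.81 CPM with NS. The groups overlapped, and NS replicate 1 was the highest library of the 6. The log2 difference was 0.19 ± 0.19 (95% interval -0.22 to 0.60, adjusted p = 0.399 by edgeR), so a difference of the size seen for Prox1 lay within its interval. Without NS replicate 1 the difference was -0.01. Onecut1 reads are also less certain than those of the other members. Of its 50-base transcript stretches, 52.3% also occur in another annotated gene. The lincRNA Gm20649, which overlaps Onecut1 on the same strand, holds 2123 of them and Onecut3 holds 1. Gm20649 is not among the genes of the deposited table, and how reads shared with it were assigned is not stated. No stretch of the other 4 genes occurs in another annotated gene.

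Prox1 had 229, 235 and 237 CPM in WT and 304, 281 and 325 CPM with NS. The WT values differed by little and the lowest NS library exceeded the highest WT library. The log2 fold change was 0.37 ± 0.06 (adjusted p = 0.000176 by edgeR). The antisense genes Prox1os and Gm28172 overlap 419 and 964 bases of Prox1, and whether counting used strand is not stated.

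Calb1 (ENSMUSG00000028222, chromosome 4 at 15881264 to 15908064, plus strand) had 143, 139 and 146 CPM in WT and 160, 161 and 177 CPM with NS. This was the smallest of the called differences, with a gap between the groups of the same order as the spread within NS. Its log2 fold change was 0.22 ± 0.06 (95% interval 0.09 to 0.34, adjusted p = 0.00496 by edgeR).

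Other genes of horizontal cells were read from a list of 25, of which 23 were tested. In NS-treated rd10, 19 of the 23 were higher and none lower, with a median log2 fold change of 0.417. Beside this count and those of the cell type lists below, 31.2% of all genes tested were called higher and 30.1% lower. The connexin Gja10, a gap junction protein of horizontal cells, had 2.69, 2.46 and 2.55 CPM in WT and 3.99, 3.43 and 3.39 CPM with NS. It was higher in every NS library, by 0.49 ± 0.19 on the log2 scale (adjusted p = 0.0369 by edgeR). Megf10 and Megf11, receptors that space horizontal cells in their mosaic, rose by 1.22 ± 0.07 and 0.37 ± 0.07. Genes of inhibitory transmission also rose, the vesicular transporter Slc32a1 by 0.28 ± 0.06 and the enzymes of GABA synthesis Gad2 and Gad1 by 0.27 ± 0.09 and 0.14 ± 0.06.

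Among transcription factors of the list, Pax6 rose by 0.56 ± 0.05, Tfap2a by 0.36 ± 0.07 and Tfap2b by 0.31 ± 0.06. Onecut3, the remaining ONECUT factor, had a log2 difference of -0.30 ± 0.17 and did not pass the test (adjusted p = 0.144 by edgeR). The guidance receptor Plxna4 rose by 0.54 ± 0.09, its ligand Sema6a by 0.50 ± 0.07, the channel Panx1 by 0.50 ± 0.10, the anion exchanger Slc4a3 by 0.45 ± 0.06 and the synaptic calcium sensor Syt2 by 0.42 ± 0.08. Of the neurofilaments, Nefm rose by 0.30 ± 0.09, while Nefl (0.12 ± 0.10) and Nefh (-0.22 ± 0.10) did not pass, and neither did Septin4 (-0.02 ± 0.05). Vim, the intermediate filament shared with Müller glia, rose by 1.31 ± 0.08. Ptf1a and Foxn4, factors of the developing cell, had 0 to 4 counts in every library and were not tested.

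Several of these genes are not particular to horizontal cells, and the lists overlap. Pax6, Tfap2a, Tfap2b, Gad1, Gad2 and Slc32a1 are also on the amacrine list and the neurofilaments on the ganglion cell list. Of the amacrine list, 11 of 20 genes were higher and none lower (median log2 fold change 0.189), and its summed level was 2550 to 2630 CPM in WT and 2960 to 3290 CPM with NS. Its largest rise after Pax6 was that of the choline transporter Slc5a7 (0.43 ± 0.11), and its smallest after Gad1 that of Calb2 (0.15 ± 0.06), which encodes calretinin. Dab1, a gene of AII amacrine cells, which also make Prox1, rose by 0.39 ± 0.07, and Gjd2, their gap junction gene, had -0.06 ± 0.06 and did not pass. This pair was chosen after its values were seen. Of the ganglion cell list, 8 of 14 were higher and none lower (median 0.347), at 1360 to 1750 CPM in WT and 1660 to 1890 CPM with NS, and the RNA-binding protein Rbpms rose by 0.64 ± 0.10. The bipolar list had 8 of 18 higher and 3 lower (median 0.092), at 2170 to 2240 CPM and 2280 to 2600 CPM, from Isl1, a LIM homeodomain factor (0.65 ± 0.06), to Lrit3, a synaptic adhesion protein (-0.86 ± 0.13). The part of these cells in the levels of the 5 members was not tested.

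The Müller glia list, at 4930 to 5240 CPM in WT and 7570 to 8750 CPM with NS, had 9 of 10 genes higher and none lower (median 0.930), led by the gliosis marker Gfap (2.67 ± 0.26). All 16 rod genes were lower (median -1.781). The cone list had 2 of 10 higher and 3 lower (median -0.042), all 12 microglia and macrophage genes were higher (median 3.558), as were all 7 endothelial and pericyte genes (median 0.549), and 4 of 8 pigment epithelium genes (median 1.489). edgeR called 0 of 8 lens genes tested (median -0.593), with 0 at an unadjusted p under 0.05. The summed lens level was 32.7 to 140 CPM in WT and 36.9 to 51.1 CPM with NS, and its part in the level of Prox1, also a lens gene, was not tested.

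**Figure D2:**
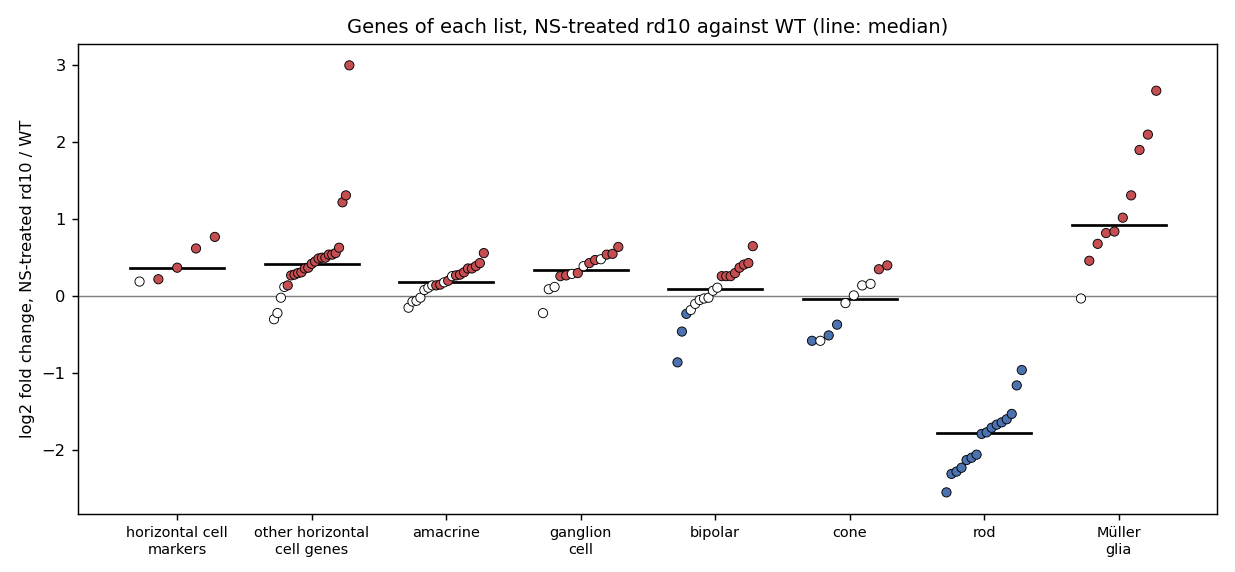
Log2 fold change, NS-treated rd10 against WT, of each tested gene (dots, in order within each list) of the horizontal cell markers, the other horizontal cell genes and 6 other cell type lists, with lines at the medians; red, called higher; blue, called lower; white, not called. The 2 horizontal cell lists lie mostly above 0, the rod genes all lie below it, and the Müller glia list has the highest median of those shown.

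The levels of the 5 members were also read against the neurons of the inner retina. The 52 genes of the amacrine, bipolar and ganglion cell lists took 0.566% to 0.611% of the counts in WT, 0.723% to 0.819% with NS and 0.682% to 0.767% with MSC-EVs. With libraries scaled to these genes, the median of all genes moved to -0.195 for NS against WT, and the share of higher genes among those called fell from 50.8% to 30.2%. On this scale 9059 of the 14644 genes tested were called, 2732 of them higher. Lhx1 (0.41 ± 0.16, adjusted p = 0.0347 by edgeR) and Onecut2 (0.56 ± 0.13, adjusted p = 0.000941) remained called, Prox1 (0.17 ± 0.08, adjusted p = 0.061) and Calb1 (0.01 ± 0.08, adjusted p = 0.905) did not, and Onecut1 stood at -0.01 ± 0.18. Of the other horizontal cell genes, 13 of 23 were called, 10 higher and 3 lower, although Pax6, Tfap2a, Tfap2b, Gad1, Gad2, Slc32a1, Nefl, Nefm and Nefh are themselves among the genes that set this scale.

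Expressed per 1000 counts of those 52 genes, Calb1 had 21.7, 21.7 and 23.8 in WT and 21.7, 23.3 and 22.7 with NS. The Calb1 groups overlapped on this scale. Onecut2 had 1.57, 2.01 and 2.17 in WT and 2.98, 2.72 and 2.74 with NS, and its groups did not overlap. Prox1 went from 34.5, 36.8 and 38.5 to 41.1, 40.7 and 41.8, also without overlap, although the fit on this scale did not call it. The share of all genes without overlap on this scale was not counted.

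**Figure D3:**
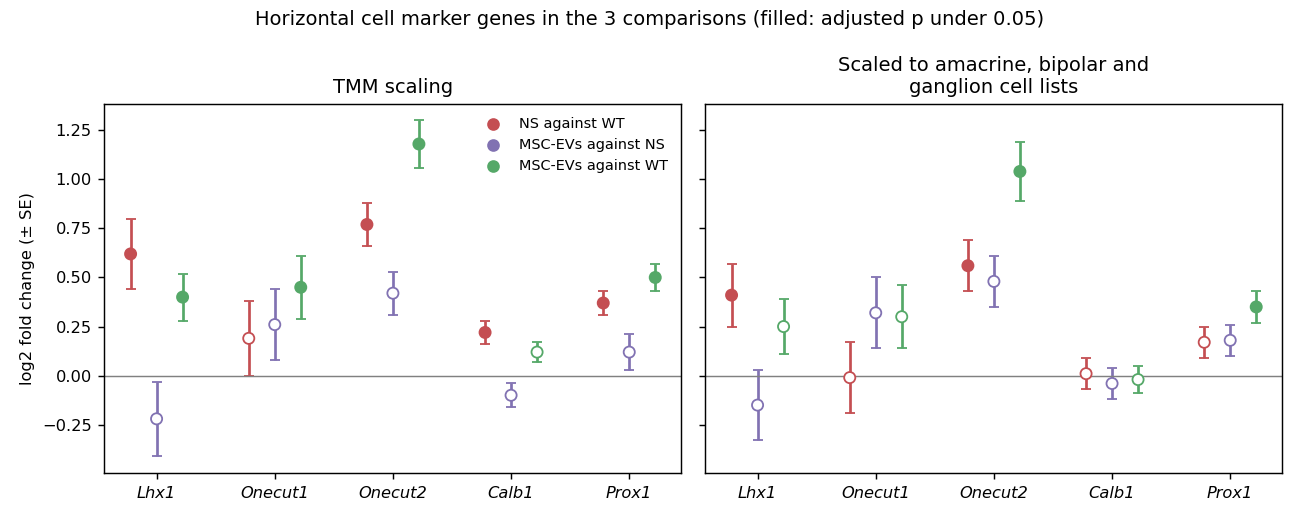
Log2 fold change ± SE of the 5 genes in the 3 comparisons, with TMM scaling (left) and with libraries scaled to the amacrine, bipolar and ganglion cell lists (right); filled symbols have an adjusted p under 0.05. Onecut2 is the only gene called in both comparisons with WT on both scales, and Calb1 lies near 0 on the right in all 3 comparisons.

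MSC-EVs-treated rd10 retinas were then compared with NS-treated ones, both within rd10. MSC-EVs replicates 1 and 2 held Y-linked transcripts at 183 and 189 CPM, while NS libraries had at most 0.49 CPM. Treatment is therefore partly confounded with Y-linked expression in this comparison, for every gene below. No member was called by edgeR's quasi-likelihood test. Onecut2 alone had an unadjusted p under 0.05, as did 20.2% of the 14765 genes tested, and the Wald test of DESeq2 called it (adjusted p = 0.0294). Of all genes tested, edgeR called 1.16%, with 0.914% higher and 0.251% lower. The groups did not overlap for Onecut2, higher with MSC-EVs, and Calb1, lower, against 26.2% of all genes without overlap (12.7% higher and 13.5% lower). The members' median log2 fold change was 0.12, against -0.002 over all genes.

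Onecut2 had 31.2, 27.3 and 24.4 CPM with MSC-EVs, against 22.1, 18.8 and 21.3 CPM with NS. Each MSC-EVs library was above each NS library, by 1.33-fold on average. The log2 difference was 0.42 ± 0.11 (95% interval 0.17 to 0.66, unadjusted p = 0.00408 and adjusted p = 0.0904 by edgeR). MSC-EVs replicates 1 and 2, which held Y-linked transcripts, were both above MSC-EVs replicate 3. Without them the difference was 0.25 ± 0.13 (adjusted p = 0.369 by edgeR), with MSC-EVs replicate 3 as the lone treated library and assumed to vary as the NS libraries do. With Y-linked expression as a covariate it was 0.26 ± 0.14 (adjusted p = 0.354 by edgeR).

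Calb1 had 153, 153 and 158 CPM with MSC-EVs, all below the NS values of 160 to 177 CPM. The gap was small, and the log2 difference was -0.10 ± 0.06 (95% interval -0.24 to 0.05, adjusted p = 0.431 by edgeR). Prox1 had 357, 287 and 340 CPM with MSC-EVs, and its lowest library fell within the NS range of 281 to 325 CPM. Its log2 difference was 0.12 ± 0.09 (95% interval -0.08 to 0.32, adjusted p = 0.5 by edgeR).

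Lhx1 had 11.2, 9.82 and 9.75 CPM with MSC-EVs, between NS replicate 2 at 8.28 CPM and the other NS libraries at 13.7 and 13.9 CPM. The log2 difference was -0.22 ± 0.19 (95% interval -0.65 to 0.20, adjusted p = 0.553 by edgeR). Onecut1 had 7.69, 6.44 and 7.62 CPM with MSC-EVs and overlapped NS at its lowest library, with a log2 difference of 0.26 ± 0.18 (95% interval -0.15 to 0.67, adjusted p = 0.458 by edgeR). Both intervals include a change of the size that Lhx1 showed between NS and WT, 0.62.

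Of the 23 other horizontal cell genes tested between the rd10 groups, 1 was higher with MSC-EVs and 1 lower, and the list's median log2 fold change was -0.011. Syt2 had 80.7, 84.4 and 85.5 CPM with MSC-EVs, against 65.7, 63.4 and 65.3 CPM with NS. The groups were clearly separate, and the log2 fold change was 0.37 ± 0.06 (adjusted p = 0.0343 by edgeR). Megf10 had 61.9, 55.5 and 52.1 CPM against 72.8, 73.0 and 78.4 CPM, and fell by 0.40 on the log2 scale (SE 0.08, adjusted p = 0.049 by edgeR). In which cells of the retina Syt2 and Megf10 differed was not tested. Neither gene was called when any NS replicate or MSC-EVs replicate 1 or 3 was left out, on the scale of the inner retinal lists, with limma on FPKM or with the Y-linked covariate. Gja10 had 3.26, 4.78 and 4.51 CPM with MSC-EVs, with a log2 difference of 0.22 ± 0.20 that did not pass.

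Of the other lists, bipolar genes had 2 of 18 lower with MSC-EVs than with NS and none higher. The remaining lists (amacrine, ganglion cell, rod, cone, Müller glia, microglia and macrophage, lens, pigment epithelium, endothelial and pericyte) had 0 called by edgeR in either direction. At an unadjusted p under 0.05, which 20.2% of all genes had, stood 12 of 18 bipolar, 6 of 14 ganglion cell, 6 of 10 cone, 4 of 20 amacrine, 4 of 10 Müller glia, 2 of 16 rod, 1 of 8 pigment epithelium and 1 of 7 endothelial and pericyte genes, and 0 of 12 microglia and macrophage and 0 of 7 lens genes. The summed level of the amacrine list was 2740 to 3010 CPM with MSC-EVs, that of the ganglion cell list 1620 to 1910 CPM and that of the Müller glia list 6910 to 7110 CPM, the last below every NS library.

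MSC-EVs-treated rd10 retinas were finally set against WT, a comparison that shares the WT libraries with the first and the MSC-EVs libraries with the second. It is likewise partly confounded with Y-linked expression, which was at most 0.5 CPM in WT. Onecut2, Prox1, Onecut1 and Lhx1 were higher with MSC-EVs than in WT, by 2.27-, 1.41-, 1.37- and 1.32-fold, and Calb1 did not pass. These 4 of 5 stand beside 55.5% of the 14623 genes tested that were called, 28.3% higher and 27.2% lower. All 5 genes had every MSC-EVs library above every WT library, as had 31.9% of all genes, while 33.3% were below and 65.1% did not overlap in either direction. The members' median log2 fold change was 0.452, against -0.004 over all genes. Onecut2 was the member past a log2 fold change of 1, as were 12.2% of genes with an adjusted p under 0.05.

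The log2 fold change of Onecut2 was 1.18 ± 0.12 (adjusted p = 3.79e-05 by edgeR), from a mean of 12.2 ± 1.58 CPM in WT to 27.6 ± 3.41 CPM (SD, n = 3). Beside it stood 0.77 for NS against WT and 0.42 for MSC-EVs against NS. Prox1 had 0.50 ± 0.07 (adjusted p = 0.000378 by edgeR), and Calb1 had 0.12 ± 0.05 (95% interval 0.01 to 0.23, adjusted p = 0.0556).

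Onecut1 had 0.45 ± 0.16 (adjusted p = 0.036 by edgeR) and Lhx1 0.40 ± 0.12 (adjusted p = 0.015). Both calls were lost without WT replicate 2 or without MSC-EVs replicate 1, and that of Onecut1 also without WT replicate 3 or MSC-EVs replicate 3, with adjusted p-values up to 0.133 for Onecut1 and 0.057 for Lhx1. Scaled to the amacrine, bipolar and ganglion cell lists, Onecut2 (1.04 ± 0.15) and Prox1 (0.35 ± 0.08) remained called, whereas Lhx1 (0.25 ± 0.14), Onecut1 (0.30 ± 0.16) and Calb1 (-0.02 ± 0.07) were not. The median of all genes then moved to -0.153, and the share of higher genes among those called went from 51.0% to 33.2%. Of the 14623 genes tested, 8161 were called on this scale, 2707 of them higher.

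Per 1000 counts of those lists, Onecut2 reached 4.41, 4.14 and 3.28 with MSC-EVs and Prox1 50.5, 43.6 and 45.6. Both lay above all WT and NS libraries on that scale. How many of all genes did so was not counted. Between the rd10 groups, the fit on that scale called neither Onecut2 (0.48 ± 0.13, adjusted p = 0.106 by edgeR) nor Prox1 (0.18 ± 0.08, adjusted p = 0.328). Calb1 had 21.7, 23.2 and 21.2 per 1000 counts with MSC-EVs, which overlapped both other groups. Of the other horizontal cell genes, 15 of 22 tested were higher than in WT and 1, Septin4 (-0.22 ± 0.05), was lower, with a median of 0.334. Among all genes tested, 28.3% were called higher than in WT and 27.2% lower. Gja10 was higher by 0.71 ± 0.20 (adjusted p = 0.0135 by edgeR).

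The 5 genes did not follow a single course over the 9 libraries. As the root mean square difference of log2 CPM, each gene centred on its own mean, Calb1 and Prox1 were closest (0.172) and Onecut2 and Calb1 farthest apart (0.456). The level of Onecut2 relative to Calb1, as a log2 ratio of CPM, was -3.56 ± 0.20 in WT, -3.0 ± 0.13 with NS and -2.49 ± 0.20 with MSC-EVs (SD, n = 3). That of Calb1 relative to Prox1 was -0.71 ± 0.05, -0.87 ± 0.06 and -1.08 ± 0.16.

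Among 14903 genes, those whose course over the 9 libraries was most like each member's were found by the same difference, as a description without a test. They were Tmem130 (0.022), Ube2r2 (0.033) and Pfkm (0.034) for Calb1, and Hid1 (0.047), St8sia3 (0.053) and Amigo2 (0.055) for Prox1. Lhx1 was nearest to Acacb (0.107), Lrrc4 (0.112) and Ephb3 (0.119). Onecut1 was nearest to Atp2b3 (0.053), Map1a (0.087) and Ank1 (0.088), and Onecut2 to Aldh1l2 (0.103), Mpp6 (0.103) and Asap3 (0.112). None of these genes is on the horizontal cell list. The points share library and depth, and the smaller distances belong to the genes that varied least, Calb1 having an SD of 0.099 over the libraries and Onecut2 of 0.506.

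The count and FPKM of a gene together imply the transcript length behind the FPKM value. It was nearly constant for 4 of the members, at 4221 to 4222 bases for Calb1, 3946 to 3970 for Onecut1, 16175 to 16282 for Onecut2 (chromosome 18 at 64340020 to 64400987, plus strand) and 7758 to 7871 for Prox1. For Lhx1 it varied, with 2321, 3031 and 3845 bases in WT, 3676, 2806 and 3537 with NS and 3849, 3437 and 3104 with MSC-EVs. The groups overlapped. The annotated Lhx1 transcripts are 3846, 1201, 766 and 382 bases long. In WT the FPKM of Lhx1 was 3.05, 2.34 and 1.94 where its CPM was 7.67, 7.61 and 8.11. On the FPKM scale NS-treated rd10 had 3.85, 3.09 and 4.14, still above every WT value, and MSC-EVs-treated rd10, at 2.96 to 3.23, overlapped WT.

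**Figure D4:**
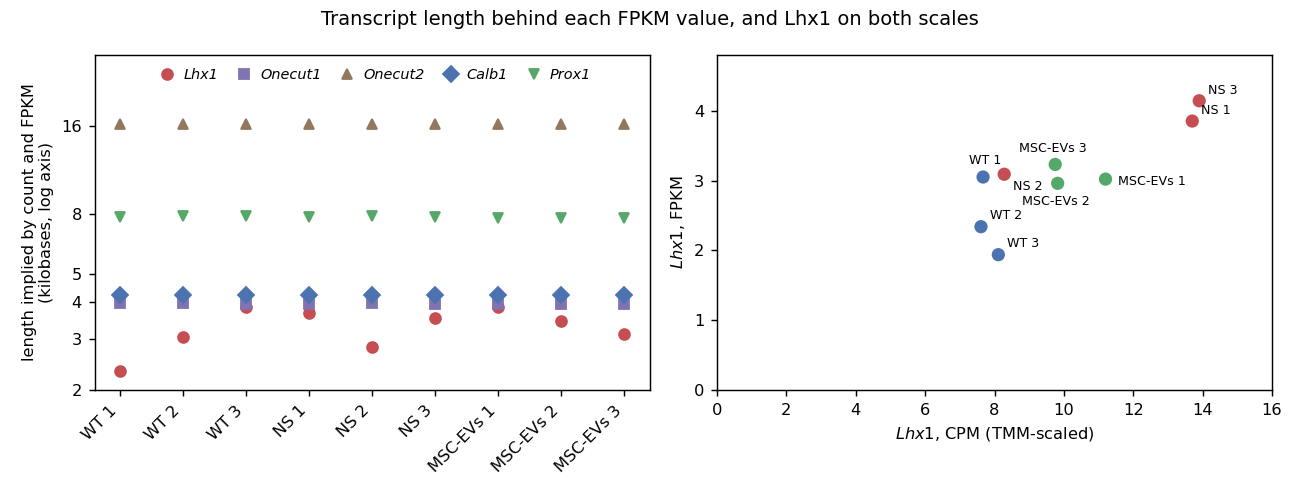
Left, transcript length implied by count and FPKM (kilobases, log axis) for the 5 genes in each library; right, Lhx1 FPKM against TMM-scaled CPM per library. The length of Lhx1 runs from 2321 to 3849 bases, while that of Prox1 runs from 7758 to 7871, and WT replicates 1 and 3, at 7.67 and 8.11 CPM, had 3.05 and 1.94 FPKM.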

How the data were processed

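Retinal mRNA was sequenced in 9 libraries, 3 per group, at P28. The authors deposited 1 table that gives each gene, in each library, an expected count (an estimate that need not be whole) and its FPKM. The submitters' processing notes name fastp, Bowtie2, HISAT2, StringTie 1.3.1 and RSEM, without their roles, and the build and annotation are not given in the sources used here. The deposited expected counts are not scaled to depth and were rounded to whole numbers, and the deposited FPKM values are normalized by the authors for length and depth. The design assumed counts and was otherwise kept.

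Pairs of groups were compared on their 6 libraries with edgeR 4.0.16 (R 4.3.3): filterByExpr, TMM, glmQLFit with robust estimation and glmQLFTest, Benjamini-Hochberg over all genes tested. Levels are TMM-scaled CPM. The standard error is the size of the log2 fold change divided by the square root of F. The code of the test was run on simulated counts with the same spread for every gene, which does not measure its error rate on these libraries. Libraries of a group differed by more than sampling noise (chi-square per degree of freedom 3.99 to 30.2), and each was counted as 1 sample. Depth was 19491717 to 62532343 counts, so 3 counts correspond to 0.048 to 0.154 CPM, and edgeR's common coefficient of biological variation lay at 7.97% to 12.5%. Alternatives were other size factors, scaling to inner retinal genes, DESeq2 1.42.0, other filters, all 9 libraries in 1 fit, a replicate block, limma 3.58.1 on log2(FPKM + 1) and log2(FPKM + 0.1), a Y-linked covariate, a fold limit and each library left out. Library totals with no TMM factors were added after seeing the data. The members and lists were chosen with earlier results of these data known. Named genes are the members, tested horizontal cell genes, extremes of the other lists, Pde6b, Y-linked genes as a sum, and the 3 genes most like each member. Some genes that this rule covers are not reported here by name. Positions and transcripts come from GENCODE M21 (GRCm38), promoters from RefSeq (GRCm38.p6).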

Additional observations from a re-analysis of the deposited data

How the results depend on the processing

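Under the alternatives, 240 of 275 values of the 5 members (15 fold changes) kept their direction and side of the threshold, 25 lost the call, 7 gained it and 3 turned direction. Scaling to the amacrine, bipolar and ganglion cell lists left 2 members called in NS against WT (Calb1 0.01, Prox1 0.17, Onecut1 reversed at -0.01) and 2 in MSC-EVs against WT (Lhx1 0.25, Onecut1 0.30, Calb1 reversed at -0.02), and 0 other horizontal cell genes in MSC-EVs against NS. The median of all genes then lay at -0.195, 0.056 and -0.153. With library totals and no TMM factors it was 0.184, -0.023 and 0.150 for NS against WT, MSC-EVs against NS and MSC-EVs against WT, with 71.7%, 70.7% and 71.4% of calls higher, and Calb1 in MSC-EVs against WT was called at 0.28. limma on FPKM had medians of 0.137 and 0.174 for NS against WT and 0.118 and 0.149 for MSC-EVs against WT, with 71.2% to 71.5% of those calls higher and 54.8% and 55.4% between the rd10 groups. A fold limit left 0 members in NS against WT (0.62, 0.77, 0.22 and 0.37 for Lhx1, Onecut2, Calb1 and Prox1) and 1 in MSC-EVs against WT (Lhx1 0.40, Onecut1 0.45 and Prox1 0.50 lost), and 3, 0 and 1 other horizontal cell genes in the 3 comparisons. The cause of the losses was not tested, except that a fold limit removes small changes by its construction.

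In MSC-EVs against NS, DESeq2's Wald test called 1 member, Onecut2 at 0.42. The 2 other horizontal cell genes became 1 with DESeq2 size factors, 4 (1 higher, 3 lower) with all 9 libraries in 1 fit, 0 with limma at either pseudocount, 0 with the Y-linked covariate and 1 without both Y-linked libraries. Over all genes 172 were called, against 916 by DESeq2's Wald test, 1026 with all 9 libraries, 295 when both Y-linked libraries were left out and 0 when NS replicate 3 or MSC-EVs replicate 1 was. In MSC-EVs against WT, 2 members were called with all 9 libraries (Lhx1 0.39, Onecut1 0.45 lost) and 2 with the Y-linked covariate (Lhx1 0.33, Onecut1 0.53 lost). Lhx1 was also lost with limma (0.25 and 0.34 at pseudocounts 1 and 0.1) and without both Y-linked libraries (0.33), and Onecut1 with DESeq2's Wald test (0.46). Calb1 gained the call with DESeq2 size factors (0.13), at least 10 counts in every library (0.14), limma (0.27 and 0.28) and without both Y-linked libraries (0.15).

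With each library left out, 4 members stayed called in NS against WT, 0 in MSC-EVs against NS and 2 to 4 in MSC-EVs against WT (2 without WT replicate 2 or MSC-EVs replicate 1). The other horizontal cell genes numbered 17 to 19, 0 to 2 (2 only without MSC-EVs replicate 2) and 14 to 18. Of the 14718 to 14939 genes tested in these fits, 7799 to 9110 were called in NS against WT. In MSC-EVs against NS 0 to 676 were called, and in MSC-EVs against WT 6517 to 8426. Onecut1 in NS against WT ranged from -0.01, without NS replicate 1, to 0.33. In MSC-EVs against WT, Lhx1 ranged from 0.34 to 0.44 and Onecut1 from 0.35 to 0.58. Fits that leave 1 MSC-EVs library assume that it varies like the other group.

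The replicate numbers are shared between groups, but a pairing of the samples by number is not established. Same-numbered deviations correlated at 0.09, 0.17 and 0.27 between the rd10 groups. For NS against WT they correlated at 0.03, -0.06 and -0.06, and for MSC-EVs against WT at 0.08, 0.02 and 0.02. Among all libraries of the other groups, 7 of 9 libraries correlated best with one of their own number. No test set this count against what unpaired libraries would give. The replicate block gave 8971, 403 and 7919 calls over all genes for NS against WT, MSC-EVs against NS and MSC-EVs against WT, against 8972, 172 and 8117 without it, and it changed no call of the members, with 4, 0 and 4 called.

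Onecut1 had the fewest counts of a member in a library, 91. Where a member's interval includes 0, its difference is undetermined at this depth and spread.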
